A study of Homo sapiens with 5 samples.

Results

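The E2F and retinoblastoma families were described in HCT116 cells, a human colorectal cancer line, after knockdown of the transcription factors SP1 and SP3. The members were chosen by name: E2F1 to E2F8, RB1 and RBL1, 10 of the 20030 symbols in each library's table, and all 10 were found. RNA sequencing gave transcript levels in 2 libraries of control cells (control 1 and control 2), 1 library with an siRNA against SP1, 1 with an siRNA against SP3 and 1 with both. All are the same line, and the sources used here give no dose or hour of treatment. Whether the controls came from separate cultures is not stated in the labels. The p-values therefore rest on the spread of these samples alone, and that spread may be technical.

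E2F proteins bind promoters of genes for DNA replication and cell division. E2F1, E2F2 and E2F3 are the activators, E2F4 and E2F5 mostly repress together with pocket proteins, E2F6 represses without them, and the atypical E2F7 and E2F8 repress as dimers that need no DP partner. The pocket proteins pRB (from RB1) and p107 (from RBL1) hold E2F in check until cyclin-dependent kinases phosphorylate them. SP1 and SP3 bind GC boxes, which are common in promoters of this pathway.

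The promoters show which members carry matches for either factor. RefSeq windows of the 250 bases upstream of the start (GRCh38.p14) at the gene start were used for 7 of the 10 members. E2F5, E2F8 and RB1 were left out, so nothing is said of their matches. They were searched on both strands for the GC box GGGCGG and for the E2F words TTTCCCGC, TTTCGCGC, TTTGCCGC and TTTGGCGC. Of 34943 RefSeq windows of the same length, 42.5% held a GC box and 2.77% an E2F word. Capitals mark GC boxes and E2F words in the sequences, which run 5′ to 3′ on the gene's strand. E2F1 (chr20:33686386-33686635, minus strand), E2F2 (chr1:23531234-23531483, minus strand), RBL1 (chr20:37095998-37096247, minus strand) and the upstream start of E2F3 (chr6:20401629-20401878, plus strand) are shown because they hold an E2F word, and E2F4 (chr16:67191905-67192154, plus strand) because it is the most abundant member and holds none.
E2F1: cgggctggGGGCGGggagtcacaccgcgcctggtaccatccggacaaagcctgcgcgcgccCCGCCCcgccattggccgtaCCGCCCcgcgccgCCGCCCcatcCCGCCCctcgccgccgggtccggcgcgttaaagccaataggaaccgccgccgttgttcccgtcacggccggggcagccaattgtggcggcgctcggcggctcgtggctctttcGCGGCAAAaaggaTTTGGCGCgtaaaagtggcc
E2F2: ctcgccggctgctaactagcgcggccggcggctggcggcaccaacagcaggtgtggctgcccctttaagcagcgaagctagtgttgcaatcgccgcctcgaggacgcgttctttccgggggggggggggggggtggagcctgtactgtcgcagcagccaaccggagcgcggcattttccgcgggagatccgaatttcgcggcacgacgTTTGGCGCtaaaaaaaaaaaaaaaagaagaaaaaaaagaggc
E2F3: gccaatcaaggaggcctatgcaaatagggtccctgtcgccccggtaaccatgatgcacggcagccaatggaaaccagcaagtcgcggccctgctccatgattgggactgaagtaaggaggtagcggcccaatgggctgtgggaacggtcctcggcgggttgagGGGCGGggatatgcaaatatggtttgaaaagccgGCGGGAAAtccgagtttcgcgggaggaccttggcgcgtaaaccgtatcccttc
E2F4: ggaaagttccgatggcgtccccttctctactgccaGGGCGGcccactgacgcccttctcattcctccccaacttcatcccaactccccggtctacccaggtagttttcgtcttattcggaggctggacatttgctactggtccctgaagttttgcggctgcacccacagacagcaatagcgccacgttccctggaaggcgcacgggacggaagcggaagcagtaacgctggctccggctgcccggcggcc
RBL1: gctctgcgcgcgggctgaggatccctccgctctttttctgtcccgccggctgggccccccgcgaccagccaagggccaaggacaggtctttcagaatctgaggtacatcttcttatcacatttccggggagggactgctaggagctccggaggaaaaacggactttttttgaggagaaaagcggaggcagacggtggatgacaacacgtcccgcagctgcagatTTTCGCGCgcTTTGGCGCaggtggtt

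The E2F1 window held 5 GC boxes, between 242 and 141 bases upstream of the start, and 2 E2F words, of which the nearer one ended 13 bases from it. Of all windows, 4.12% held 5 or more GC boxes and 0.12% held 2 or more E2F words. RBL1 held 2 E2F words and no GC box, and E2F2 held 1 and none. The upstream start of E2F3 held 1 of each, with a CHR element (TTTGAA, the site bound by the MuvB complex, in 13.4% of windows) between them. Its internal start held 3 GC boxes and no E2F word. E2F7 held 3 GC boxes, and E2F4 and E2F6 1 each, all without an E2F word. A match is a description of the letters in the window, not a measured site.

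**Figure D1:**
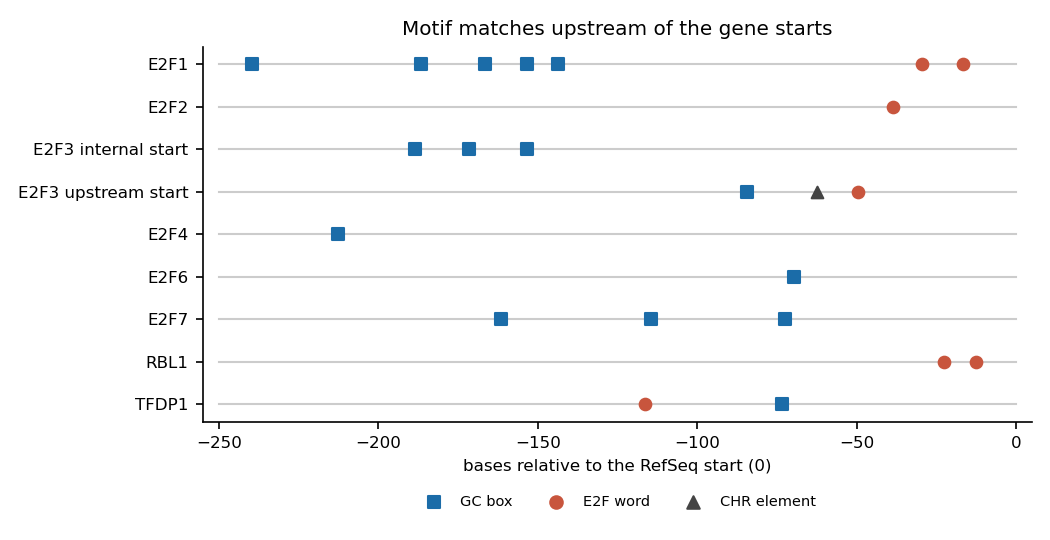
Positions of GC boxes (squares), E2F words (circles) and CHR elements (triangles) in the 250 bases before each RefSeq start, with distance from the start on the horizontal axis in bases. E2F5, E2F8 and RB1 are not drawn. E2F1 has 5 GC boxes upstream of 2 E2F words, while RBL1 has 2 E2F words and no GC box; TFDP1, a partner of E2F, is drawn for comparison.

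The libraries held 14678068 to 15970519 counted reads, recovered from the steps of the FPKM values (fragment counts scaled to transcript length and library depth). SP1 stood at 36.6 and 37.2 FPKM in control cells against 15.8 FPKM with its siRNA, and SP3 at 13.3 and 13.0 FPKM against 5.42 FPKM, so each knockdown library was lower in its target. With both siRNAs SP1 was at 16.1 FPKM and SP3 at 6.67 FPKM. SP1 was also lower in the SP3 siRNA library (27.5 FPKM), a call that was lost in the additive model (adjusted p = 0.284). Epithelial markers were well expressed in all libraries, with EPCAM at 93.7 to 119 FPKM, apart from KRT20 at 0.0694 to 0.722 FPKM. They were not all steady. KRT18 went from 750 and 740 FPKM in the controls to 408 with the SP1 siRNA, 284 with the SP3 siRNA and 153 with both. ELF3 went from 267 FPKM in each control to 90.9 FPKM with the SP3 siRNA. Of 8 tested epithelial markers limma called 2 higher and 3 lower with the SP1 siRNA, 2 and 4 with the SP3 siRNA and 3 and 4 with both. Of all genes, 36.5% and 28.9%, 29.5% and 32.0%, and 31.8% and 31.1% were called higher and lower in these comparisons. An additive model, described below, called 0 of the epithelial markers higher and 1 lower, 1 and 2, and 2 and 2. Of 8 leukocyte markers, CD3E, MS4A1 and TYROBP were at 0 FPKM in all 3 knockdown libraries, while the controls held 0.582 to 0.674 FPKM of CD3E, 0.142 to 0.210 of MS4A1 and 1.49 to 2.05 of TYROBP. LYZ went from 11.1 and 12.2 FPKM to between 0.0449 and 0.258 FPKM, and the summed level of the 8 was 77.8 to 79.7 FPKM in the controls and 57.3 to 94.6 FPKM in the knockdowns, most of it CD68 (56.2 to 94.1 FPKM). Limma called 4 of the 5 tested leukocyte markers lower in each comparison with the controls, beside 28.9%, 32.0% and 31.1% of all genes. The other tested marker, CD68, was called higher with the SP3 siRNA and with both. The additive model called 0, 0 and 1 of the 5 lower. The part of these markers in the results was not tested. Of 7 fibroblast and 4 endothelial markers, only COL1A1 reached 1 FPKM (4.21 to 8.88 FPKM), and LUM was at 0 FPKM in all libraries. In bulk RNA, fewer cells of a type and less RNA per cell cannot be told apart.

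In the controls E2F4 was by far the most abundant member, at 43.6 ± 0.684 FPKM (SD, n = 2), and made up most of the E2F transcript: E2F4 and E2F5 together held 64.2% and 66.2% of the summed FPKM of the 8 E2F genes. RB1 followed at 9.80 ± 0.207 FPKM, E2F7 at 7.87 ± 0.549, E2F1 at 5.05 ± 0.399, E2F5 at 4.20 ± 0.137, E2F6 at 4.0 ± 0.602, E2F3 at 3.75 ± 0.295, E2F8 at 3.04 ± 0.185, E2F2 at 1.82 ± 0.423 and RBL1 at 1.09 ± 0.0176 FPKM. The control values of neighbours in this order overlapped for E2F5 and E2F6 and for E2F6 and E2F3. The others did not overlap in 2 libraries. Depth was limited for the lowest members: E2F2 rested on 59 to 198 reads a library and RBL1 on 67 to 113, against 775 to 1473 for E2F4. E2F1 rested on 75 reads in the SP1 siRNA library and on 202 to 287 in the others.

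**Figure D2:**
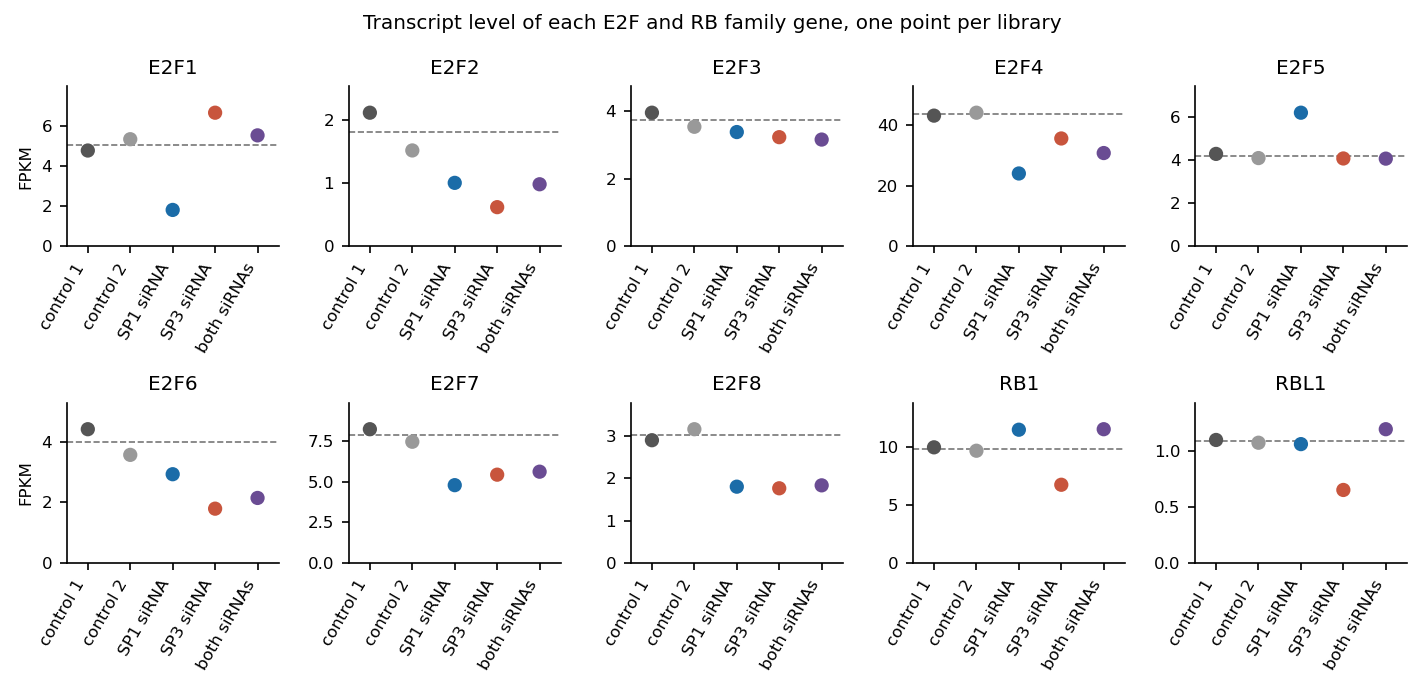
FPKM of each gene (vertical axis, from 0, with its own scale per panel) in the 5 libraries, 1 point per library; the dashed line is the mean of the 2 controls. E2F1 is lowest with the SP1 siRNA (1.81 FPKM) and highest with the SP3 siRNA (6.66 FPKM), while RB1 and RBL1 are lowest with the SP3 siRNA (6.72 and 0.653 FPKM).

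Differences were tested with limma on log2(FPKM + 1) across 11709 genes. All differences are on this scale, where the pseudocount shrinks those of low genes. The test pools the spread of the 2 controls over genes, and the knockdown libraries, 1 per group, were assumed to vary like them without a check. A gene was called at a Benjamini-Hochberg adjusted p under 0.05. That threshold is loose here: 65.3% of all tested genes were called with the SP1 siRNA, 61.6% with the SP3 siRNA and 62.9% with both. In these comparisons 7, 8 and 5 of the 10 members were called, and beside such shares of all genes these counts show nothing particular to the families. By direction, 1 rose and 6 fell with the SP1 siRNA (36.5% and 28.9% of all genes), 1 rose and 7 fell with the SP3 siRNA (29.5% and 32.0%), and none rose and 5 fell with both (31.8% and 31.1%). With median-of-ratios scaling the median of all genes moved by -0.10 in the SP1 siRNA comparison, and the split of all called genes went from 4271 higher and 3379 lower to 3493 and 4213. The members' median difference was -0.41, -0.40 and -0.30, beside 0.06, -0.02 and 0.01 over all genes. The sizes and the order of libraries therefore carry the description below. In an additive model, where the departure of the double knockdown from the sum of the single effects counts as spread, limma called none of the 10 members in any of the 3 comparisons (3, 2 and 3 at an unadjusted p under 0.05), against 7.67%, 15.4% and 16.8% of all genes. Without the filter on low values it called 2, 0 and 1 members (6, 6 and 4 at an unadjusted p under 0.05), beside 24.4%, 12.1% and 18.4% of all genes. These were E2F1 and E2F4 with the SP1 siRNA and E2F4 with both. Of the 7115 genes averaging at least 5 FPKM, 10.6%, 9.32% and 9.68% differed by at least 2-fold from each control (5.90%, 5.19% and 5.31% lower). Of the 3 members with such a mean (E2F4, E2F7 and RB1) none did. Below that mean E2F1 was at least 2-fold lower with the SP1 siRNA and E2F2 with the SP3 siRNA.

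Among the activators, E2F1 moved in opposite directions with the single siRNAs. It stood at 4.77 and 5.33 FPKM in the controls, 1.81 FPKM with the SP1 siRNA, 6.66 FPKM with the SP3 siRNA and 5.53 FPKM with both. The SP1 siRNA library was thus far below both controls and the SP3 siRNA library above both. E2F1 fell with the SP1 siRNA to 35.8% of control (95% interval for counting error 27.6 to 45.8%), a log2 difference of -1.11 ± 0.11 (SE, limma adjusted p = 6.41e-07). With the SP3 siRNA it rose to 132% of control (113 to 153%, log2 difference 0.34 ± 0.11, adjusted p = 0.0154). With both siRNAs the difference of 0.11 ± 0.11 was not called (adjusted p = 0.404), and it lay below the difference of 0.13 between the 2 controls. In the additive model the SP1 siRNA effect was -0.73 (adjusted p = 0.0852) and the SP3 siRNA effect 0.72 (adjusted p = 0.0792).

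E2F2, an activator of S phase entry like E2F1, was lower in all 3 knockdown libraries. Its values were 2.11 and 1.52 FPKM in the controls, 1.0 with the SP1 siRNA, 0.619 with the SP3 siRNA and 0.981 with both. No knockdown value reached the lower control, but the controls themselves differed (control 2 minus control 1 was -0.31) by more than counting error allows (control 2 at 71.7% of control 1, interval 57.5 to 89.4%). The log2 differences were -0.48 ± 0.15, -0.79 ± 0.15 and -0.50 ± 0.15 (limma adjusted p = 0.0103, 0.000315 and 0.00899). E2F3, the third activator, was at 3.95 and 3.54 FPKM in the controls and at 3.38, 3.23 and 3.16 FPKM with the SP1 siRNA, the SP3 siRNA and both. All 3 lay just below the controls, at differences of -0.11 to -0.19 that were not called (adjusted p 0.172 to 0.403). E2F1 made up 44.0% and 51.3% of the summed FPKM of the activators in the controls, 29.2% with the SP1 siRNA, 63.4% with the SP3 siRNA and 57.2% with both.

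E2F4, the main E2F bound in resting cells, fell in all 3 knockdown libraries. It went from 43.1 and 44.1 FPKM in the controls to 24.0 FPKM with the SP1 siRNA, 35.6 FPKM with the SP3 siRNA and 30.8 FPKM with both. The controls lay close together, and all 3 knockdowns were below them, the SP1 siRNA library most. Its log2 differences were -0.83 ± 0.07, -0.29 ± 0.07 and -0.49 ± 0.07 (limma adjusted p = 7.72e-08, 0.00215 and 2.03e-05), which placed it at 55.1% (50.8 to 59.6%), 81.6% (76.2 to 87.3%) and 70.6% (65.5 to 75.9%) of control. In the additive model the SP3 siRNA effect shrank to -0.02 and the SP1 siRNA effect to -0.56 (adjusted p = 0.954 and 0.0862). E2F5, its close relative, instead rose with the SP1 siRNA, from 4.29 and 4.10 FPKM to 6.21 FPKM (difference 0.47 ± 0.11, limma adjusted p = 0.00137). It stood at 4.08 and 4.07 FPKM with the SP3 siRNA and with both, with differences of -0.03 and -0.03 that were not called (adjusted p = 0.810 and 0.795). In GENCODE 29 exons on the opposite strand overlap those of E2F5, E2F8 and RBL1, and since the sources used here do not give the strand, reads of the partners cannot be told apart.

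E2F6, a repressor that works with Polycomb-like complexes, was lowest with the SP3 siRNA. It stood at 4.43 and 3.58 FPKM in the controls, 2.93 with the SP1 siRNA, 1.79 with the SP3 siRNA and 2.15 with both. The knockdown values were all below the lower control, and control 2 minus control 1 was -0.25 on the log2 scale. Here too the controls differed by more than counting error allows (control 2 at 80.8% of control 1, interval 69.0 to 94.5%). E2F6 fell by 0.84 ± 0.13 with the SP3 siRNA and by 0.66 ± 0.13 with both (limma adjusted p = 5.41e-05 and 0.000412), and by 0.34 ± 0.13 with the SP1 siRNA (adjusted p = 0.0310). In the additive model its SP1 siRNA effect was -0.12, its SP3 siRNA effect -0.62 and their sum -0.74 (adjusted p = 0.627, 0.0646 and 0.0711).

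The atypical repressors E2F7 and E2F8, which close the E2F wave after S phase, were lower in all 3 knockdown libraries by similar amounts. E2F7 was at 8.26 and 7.48 FPKM in the controls, 4.80 with the SP1 siRNA, 5.45 with the SP3 siRNA and 5.63 with both. E2F8 was at 2.91 and 3.17 FPKM in the controls and at 1.80, 1.77 and 1.84 FPKM in the knockdowns. For each, the knockdown values did not overlap the controls. The falls were 0.61 ± 0.10, 0.46 ± 0.10 and 0.42 ± 0.10 for E2F7 and 0.52 ± 0.12, 0.54 ± 0.12 and 0.51 ± 0.12 for E2F8 (limma adjusted p = 0.000113 to 0.00263). No difference between knockdown libraries was called for either gene (adjusted p 0.199 to 0.937), but with median-of-ratios scaling E2F7 was called higher with the SP3 siRNA than with the SP1 siRNA (0.29, adjusted p = 0.0295). The counting interval of E2F8 with both siRNAs against the SP1 siRNA alone was 77.2 to 134%, so a difference within those bounds was not detectable at this depth.

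RB1, the retinoblastoma tumour suppressor gene, fell only in the library with the SP3 siRNA alone. It was at 9.94 and 9.65 FPKM in the controls, 11.5 with the SP1 siRNA, 6.72 with the SP3 siRNA and 11.5 with both. The SP3 siRNA library lay below both controls and the other knockdown libraries above them. The log2 difference with the SP3 siRNA was -0.48 ± 0.09 (limma adjusted p = 0.000279), while those of 0.21 ± 0.09 with the SP1 siRNA and 0.21 ± 0.09 with both were not called (adjusted p = 0.0554 and 0.0518). Those values passed the threshold when the test was limited to genes averaging at least 5 FPKM (adjusted p = 0.0397 and 0.0362), while with median-of-ratios scaling the former came to 0.10 (adjusted p = 0.343). Set against the SP3 siRNA alone, both siRNAs together gave 171% of its RB1 level (153 to 192%, log2 difference 0.70 ± 0.10, adjusted p = 0.000168). RBL1, which encodes p107, was also lowest with the SP3 siRNA, at a low level, with 1.10 and 1.08 FPKM in the controls, 1.06 with the SP1 siRNA, 0.653 with the SP3 siRNA and 1.20 with both. Its fall with the SP3 siRNA was 0.34 ± 0.13 (adjusted p = 0.0399), to 59.9% of control (44.9 to 79.1%). RBL2, the third pocket protein gene, is given because its values were seen to go the other way. It rose from 6.35 and 6.82 FPKM to 8.74, 10.8 and 9.47 FPKM (0.36 ± 0.10, 0.64 ± 0.10 and 0.47 ± 0.10, adjusted p = 0.00380, 3.73e-05 and 0.000592), and each of these calls was lost in the additive model. The summed FPKM of the 3 pocket protein genes was 17.4 and 17.5 in the controls, 21.3 with the SP1 siRNA, 18.2 with the SP3 siRNA and 22.2 with both. Without RBL2 it was 11.0 and 10.7 in the controls and 7.37 with the SP3 siRNA.

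**Figure D3:**
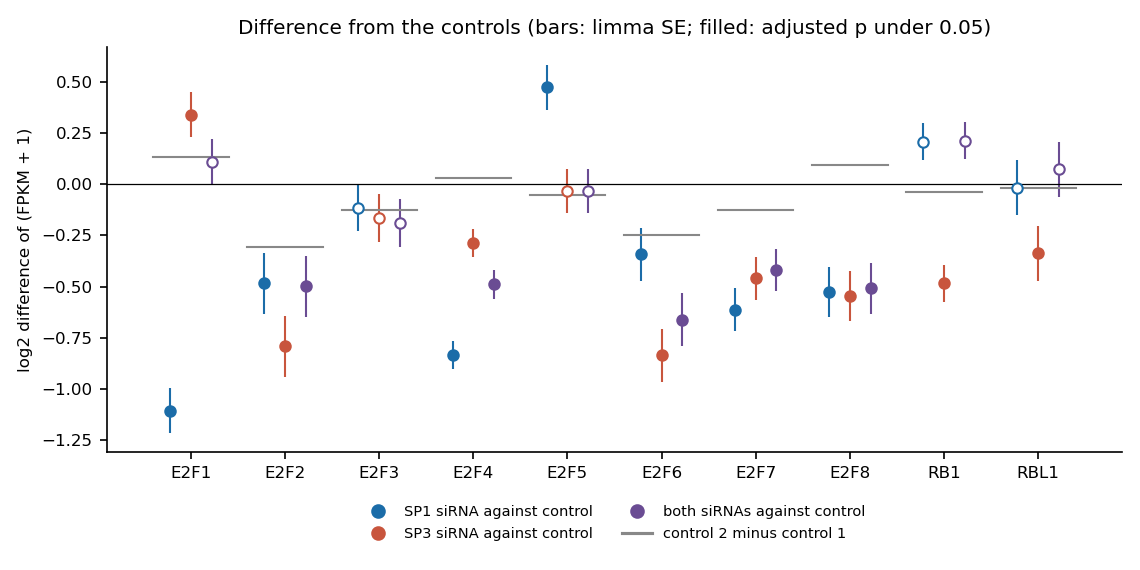
Log2 difference of (FPKM + 1) from the control mean for each gene and knockdown library; bars are limma standard errors, filled points have an adjusted p under 0.05, and the grey line is control 2 minus control 1. E2F1 has the lowest value with the SP1 siRNA (-1.11) and a value above 0 with the SP3 siRNA (0.34), and the knockdown differences of E2F3 lie close to its grey line.

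Setting the single knockdowns directly against each other, a comparison added after the data were examined, asked where SP1 and SP3 loss part ways. Of the 10 members 2 were higher and 3 lower with the SP3 siRNA, beside 26.4% and 36.2% of all genes (62.6% in all). Scaling moved the median of all genes by 0.14 here, and the split of called genes from 3096 higher and 4234 lower to 4096 and 3248. E2F1 was 3.68 times as high with the SP3 siRNA as with the SP1 siRNA (interval 2.84 to 4.81, log2 difference 1.45 ± 0.13, limma adjusted p = 2.24e-07) and E2F4 was 1.48 times as high (1.35 to 1.62, 0.55 ± 0.08, adjusted p = 3.00e-05). RB1 was lower, at 58.6% of its level with the SP1 siRNA (52.4 to 65.5%, -0.69 ± 0.10), as were E2F5 at 65.7% (51.7 to 83.3%) and E2F6 at 61.1% (49.4 to 75.4%).

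The double knockdown asked whether the single differences add up. Had they added on the log2 scale, E2F1 would have stood at 2.56 FPKM with both siRNAs, and it was measured at 5.53 FPKM. The interaction, by which the difference with both siRNAs exceeds the added single differences, was 0.88 ± 0.17 for E2F1 (limma adjusted p = 0.00102) and 0.63 ± 0.10 for E2F4 (adjusted p = 0.000297), for which 19.5 FPKM would follow from adding and 30.8 FPKM was measured. It was called above 0 for 6 members and below 0 for 1, E2F5 (-0.47 ± 0.16, adjusted p = 0.0329), beside 18.5% and 20.9% of all genes (39.4% in all). Without the filter on low values limma called the interaction for none of the 10 (6 at an unadjusted p under 0.05). It then called none of the 17100 genes for the interaction, nor in the comparisons of both siRNAs with either one alone (3 members each at an unadjusted p under 0.05). The called values above 0 were completed by E2F2 (0.77), E2F7 (0.65), E2F8 (0.56) and RB1 (0.49). E2F3, E2F6 and RBL1 were not called, at 0.09, 0.51 and 0.43, but with median-of-ratios scaling E2F6 was (0.56, adjusted p = 0.0207). A gene equally lower in all 3 knockdown libraries also gets an interaction above 0. E2F8 is such a case, at -0.52, -0.54 and -0.51 from the controls. E2F1 in the double knockdown was 3.05 times its level with the SP1 siRNA alone (2.34 to 4.03, log2 difference 1.22 ± 0.13, adjusted p = 3.26e-06). Of the 10 members, 2 were higher and 1 lower when the SP3 siRNA was added to the SP1 siRNA (21.0% and 26.3% of all genes, 47.3% in all). When the SP1 siRNA was added to the SP3 siRNA, 1 member, RB1, was higher and none lower (17.9% and 15.0%, 32.9% in all), though with scaling E2F4 was called lower (-0.27, adjusted p = 0.0209). With scaling the splits of called genes went from 2458 higher and 3082 lower to 3209 and 2453, and from 2093 and 1761 to 1702 and 2374.

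**Figure D4:**
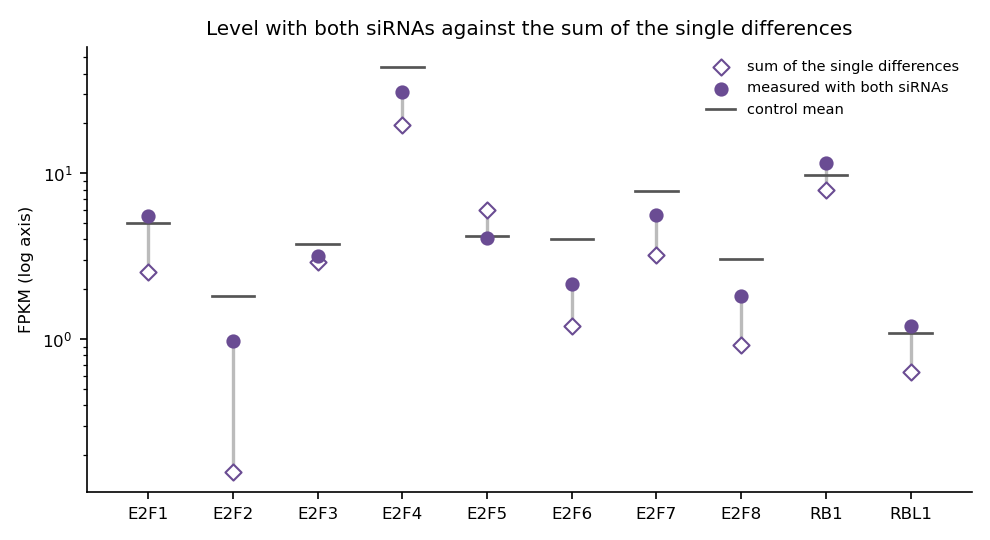
FPKM on a log axis with both siRNAs as measured (filled circles) and as the sum of the single log2 differences would give (open diamonds), with the control mean as a bar. Measured levels lie above the sum for 9 genes, from 2.56 to 5.53 FPKM for E2F1, and below it for E2F5 (6.05 to 4.07 FPKM).

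The members' partners and regulators came from lists chosen with earlier results of these data known. Their counts stand beside the 65.3%, 61.6% and 62.9% of all genes called with the SP1 siRNA, the SP3 siRNA and both, and beside 7.67%, 15.4% and 16.8% in the additive model. By direction, 36.5%, 29.5% and 31.8% of all genes were called higher and 28.9%, 32.0% and 31.1% lower. Median-of-ratios scaling turned that split each time: the higher part of the called genes went from 55.8% to 45.3%, from 48.0% to 52.5% and from 50.6% to 48.6%. The list with the DP partners and the MuvB core also held RBL2, MYBL2, FOXM1 and DYRK1A. Of its 10 tested genes, 4 rose and 3 fell with the SP1 siRNA (median 0.15). With the SP3 siRNA 3 rose and 4 fell (-0.14), and with both 3 rose and 3 fell (-0.07). The additive model called 1, 1 and 2 of them higher and none lower. TFDP1 encodes DP1, a DP partner with which E2F1 to E2F6 bind DNA. It rose with the SP1 siRNA from 28.0 and 25.5 FPKM, reaching 54.7 FPKM (1.01 ± 0.07, limma adjusted p = 2.17e-08). It stood at 57.1 FPKM with both and 32.2 FPKM with the SP3 siRNA. The rises of TFDP1 with the SP1 siRNA and with both held in the additive model. TFDP2, another DP partner gene, was at 5.44 and 5.85 FPKM in the controls and 7.77, 4.52 and 5.12 FPKM in the knockdowns. Limma called TFDP2 higher with the SP1 siRNA and lower with the SP3 siRNA, but not with both. Neither call of TFDP2 held in the additive model. FOXM1, a mitotic activator that joins MuvB, fell from 11.1 and 10.5 FPKM to 5.04, 2.41 and 4.98 FPKM with the SP1 siRNA, the SP3 siRNA and both. MYBL2, which encodes B-MYB, fell with the SP3 siRNA (from 21.0 and 20.9 to 9.47 FPKM, -1.07 ± 0.08) and was at 20.6 and 19.2 FPKM in the others. RBBP4, a MuvB histone-binding subunit, rose from 15.7 and 14.7 to 18.7, 22.9 and 27.4 FPKM, and its rise with the SP1 siRNA was lost with median-of-ratios scaling (adjusted p = 0.0601). The falls of FOXM1 and MYBL2 were lost in the additive model.

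Of 12 genes of the E2F6 repressor complex, 6 rose and 2 fell with the SP1 siRNA (median 0.26), 4 and 4 with the SP3 siRNA (0.06) and 5 and 3 with both (0.20). The additive model called none with the SP1 siRNA, while 1 was higher and 1 lower with the SP3 siRNA (median -0.08), and 1 was higher with both. The deacetylase gene HDAC1 rose from 32.2 and 30.4 FPKM to 75.7, 77.0 and 90.2 FPKM (1.25 ± 0.07, 1.27 ± 0.07 and 1.50 ± 0.07), of which the value with both siRNAs held in the additive model. PCGF6, a subunit particular to this complex, rose from 2.69 and 2.76 to 5.72, 4.75 and 4.74 FPKM, and HDAC2 from 14.8 and 14.6 to 20.8, 19.9 and 21.3 FPKM. RYBP, a Polycomb subunit, fell with the SP3 siRNA from 34.4 and 36.7 to 21.2 FPKM and was at 34.6 and 36.0 FPKM in the other knockdowns. The additive model called none of these rises of PCGF6 and HDAC2, nor that fall. Of 6 germline genes that E2F6 holds down, only TDRKH reached 1 FPKM in any library; it was at 3.66 and 4.04 FPKM in the controls and 3.98 to 4.67 FPKM in the knockdowns, with no call. The other 5 did not exceed 0.277 FPKM in any library.

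Of 17 tested kinases, cyclins and inhibitors that act on pocket proteins, 2 rose and 11 fell with the SP1 siRNA (median -0.40), 4 and 12 with the SP3 siRNA (-0.26) and 4 and 8 with both (-0.18). The additive model left 0 higher and 3 lower, 2 and 3, and 2 and 4. CCND1, the cyclin that starts RB phosphorylation, stood at 359 and 358 FPKM in the controls, 65.8 with the SP1 siRNA, 281 with the SP3 siRNA and 77.5 with both. CCNE1, itself an E2F target, stood at 15.5 and 17.1 FPKM in the controls and at 26.8, 78.2 and 55.8 FPKM in the knockdowns, highest with the SP3 siRNA. The kinase inhibitor genes CDKN1A and CDKN1C parted: CDKN1A went from 343 and 329 FPKM to 200, 198 and 92.3 FPKM, and CDKN1C from 35.5 and 36.5 to 19.9, 107 and 68.1 FPKM. All of these differences were called by limma, and those of CCND1 with the SP3 siRNA and CCNE1 with the SP1 siRNA were lost in the additive model.

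Among 50 G1/S targets of E2F, 7 rose and 31 fell with the SP1 siRNA (median -0.43), 3 rose and 38 fell with the SP3 siRNA (-0.53), and 7 rose and 22 fell with both (-0.11). Named targets were RRM2, a ribonucleotide reductase subunit, at 66.1 and 64.5 FPKM in the controls and 18.0, 17.2 and 40.0 FPKM in the knockdowns; the flap endonuclease FEN1, at 23.0 and 23.1 FPKM and then 3.91, 7.42 and 5.82 FPKM; and the helicase subunit MCM2, at 25.7 and 26.2 FPKM and then 15.3, 5.93 and 12.7 FPKM. Each was called lower by limma in all 3 comparisons, and none was in the additive model. In that model 1 of the 50 targets was called with the SP3 siRNA and with both (CCNE1, higher) and none with the SP1 siRNA. The interaction was called above 0 for 39 of the 50 and below 0 for 3 (median 0.71), beside 18.5% and 20.9% of all genes. Without the filter on low values limma called it for no gene at all. The G2/M targets went the same way, with 24 of 25 called above 0 and none below. So did the kinases, cyclins and inhibitors, with 10 of 17 above and 4 below. The list with the DP partners and the MuvB core had 4 of 10 above and 1 below. The E2F6 complex went the other way, with 2 of 12 above and 4 below. Of 8 apoptosis genes none was called above 0 and 4 below. An equal fall in all 3 knockdown libraries gives a value above 0 by itself.

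Among 25 G2/M targets of the DREAM complex, in which E2F4 and p107 or p130 sit on MuvB, none rose and 24 fell with the SP1 siRNA (median -1.13), 1 rose and 23 fell with the SP3 siRNA (-1.24), and none rose and 20 fell with both (-0.69). TOP2A was at 32.2 and 26.7 FPKM in the controls and 10.3, 5.64 and 12.3 FPKM in the knockdowns, ANLN at 64.1 and 56.7 and then 27.7, 18.6 and 27.1 FPKM, and MAD2L1 at 34.4 and 33.0 and then 11.7, 14.3 and 24.0 FPKM. CDC20, the activator of the anaphase-promoting complex, rose with the SP3 siRNA (91.8 FPKM, from 76.0 and 69.1) and was at 29.0 and 54.0 FPKM with the SP1 siRNA and both. The controls differed in this list too, with a median of -0.23 for control 2 minus control 1. The additive model called 1 of the 25, CDC20 with the SP1 siRNA.

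Of 8 apoptosis genes reported as E2F1 targets, 5 rose and 2 fell with the SP1 siRNA (median 0.28), 4 rose and 1 fell with the SP3 siRNA (0.44), and 4 rose and 3 fell with both (0.16). Under additivity none was called with the SP1 siRNA (median 0.05), 2 were higher with the SP3 siRNA and 1 with both, and none was lower. PMAIP1, which encodes NOXA, was at 41.9 and 44.8 FPKM in the controls, 55.7 with the SP1 siRNA, 100.1 with the SP3 siRNA and 95.7 with both. CASP8, an initiator caspase gene, was at 3.69 and 2.98 FPKM in the controls and at 5.09, 6.36 and 4.65 FPKM in the knockdowns. Both were called higher by limma in all 3 comparisons. In the additive model PMAIP1 held with the SP3 siRNA and with both, and CASP8 in none.

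**Figure D5:**
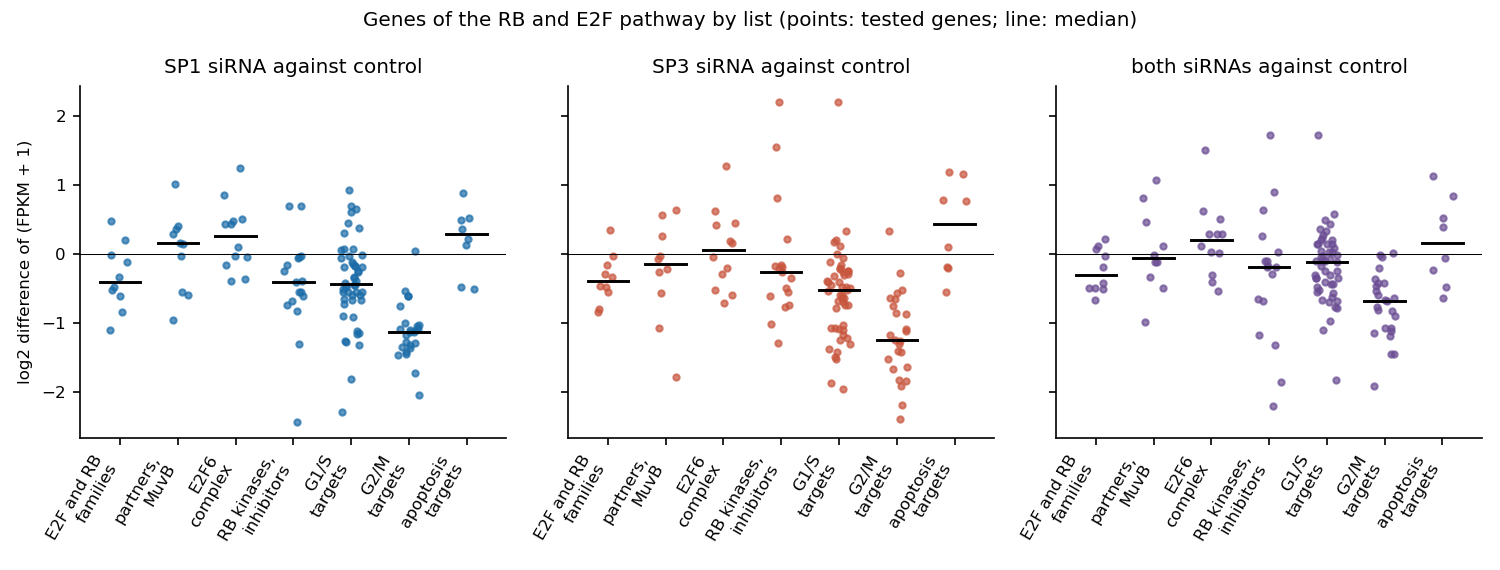
Log2 difference of (FPKM + 1) from the controls (vertical axis) for the tested genes of each list (points) in the 3 knockdown comparisons, with the list's median as a line. The G2/M targets lie lowest in every panel (medians -1.13, -1.24 and -0.69), and the E2F and RB family genes have medians of -0.41, -0.40 and -0.30.

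By the pattern of the 3 differences from the controls, among the 7115 genes averaging at least 5 FPKM, those nearest to E2F4 were HNRNPUL2 (Euclidean distance 0.0353) and CLPTM1 (0.0420), those nearest to E2F7 were GRPEL1 (0.0357) and ZNF740 (0.0621), and those nearest to RB1 were CETN2 (0.112) and DNPEP (0.112). The median distance of all these genes was 1.19, 1.09 and 0.928. With 3 points a gene, such closeness describes the values only.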

How the data were processed

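RNA from 5 HCT116 libraries was sequenced: 2 controls and 1 library for each of the 3 siRNA treatments. The authors deposited FPKM values per gene, in 1 table a library. The submitters' processing notes list Cufflinks 2.2.1, HISAT2 2.0.5, HTSeq 0.9.1 and Trimmomatic 0.36 but not what each did. Build, annotation, strand and RNA selection were not stated in the sources used, and RNA quality was not assessed. Rows with calendar-date or repeated symbols (27) were left out.

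A filter of 1 FPKM or more in any library kept 11709 genes. They were fitted with limma 3.58.1 in R 4.3.3 on log2(FPKM + 1), with 1 mean per group, 1 residual degree of freedom and 13.6 prior degrees of freedom. P-values were adjusted by Benjamini-Hochberg over all genes. The test was first run on simulated data, in which all libraries had the same spread and only a small set of genes was changed. That run could not check whether the knockdown libraries vary like the controls.

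Whole reads were sought from the FPKM steps, as the smallest transcript length that gave whole numbers within 0.02 reads in all libraries. This held for 100.00% of the 17100 genes with any value, and for 0.33% of 300 genes after jittering. Depth came from 106 genes with 1 transcript in GENCODE 29. A recovered number is a lower limit, and the 95% intervals (exact conditional binomial) cover counting error only.

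Members and gene lists were chosen with earlier results of these data known. The text names all members, SP1 and SP3, and up to 4 genes of each list with the smallest p against the controls. Some genes that this rule picked are not reported here. RBL2, TFDP2 and the single markers and germline genes with values were named after their values were seen. Alternatives were the pseudocount, the filter, the scaling, leaving out a control and an additive model. Promoter windows are from RefSeq.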

Additional observations from a re-analysis of the deposited data

Results flagged for a closer look

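For 7 of the 10 members limma's test of the interaction called a departure of the double knockdown from the added single differences. An equal fall in all 3 knockdown libraries also gives a value above 0. E2F8 differed from the controls by -0.52, -0.54 and -0.51. Without scaling, no difference between knockdown libraries was called for E2F2, E2F7 or E2F8. An offset shared by the 2 controls and a dependence of one siRNA on the other cannot be told apart there. On the log2(FPKM + 1) scale the interaction was 0.88 for E2F1 (adjusted p = 0.00102), 0.77 for E2F2 (0.0144), 0.63 for E2F4 (0.000297), -0.47 for E2F5 (0.0329), 0.65 for E2F7 (0.00462), 0.56 for E2F8 (0.0282) and 0.49 for RB1 (0.0112). Of all tested genes 39.4% were called by the same test. The test rests on the spread of 2 controls and on 1 library in each knockdown group. With no filter on low values limma called none of these interactions (6 at an unadjusted p under 0.05).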

How the results depend on the processing

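The members' direction and calls held with a pseudocount of 0.1, which gave the same counts of called members. Over the 401 values of members under alternatives, 50 lost the call, 5 gained it, 10 changed sign and 336 were labelled the same. Those 336 include 70 values for each left-out control, which have no test and so no side of a threshold. Their label required only a shift within the SD of the 2 controls. Leaving out 1 control cannot shift a value by more, so this label was fixed in advance. Without the filter on low values limma called 2, 0 and 1 members against the controls, 0 and 0 with both siRNAs against the SP1 and SP3 siRNA, 0 for the interaction and 3 for the SP3 siRNA against the SP1 siRNA, beside 24.4, 12.1, 18.4, 0, 0, 0 and 15.3% of all genes. Only 3 members passed a stricter minimum of 5 FPKM on the mean, and 3, 3, 3, 1, 1, 3 and 2 of them were called in the same order, beside 71.6, 69.7, 69.9, 56.8, 44.6, 49.8 and 69.4% of all genes. The additive model called 0, 0 and 0 against the controls, and its spread includes the departure from the sum. Scaling gave 2 calls for both siRNAs against the SP3 siRNA (E2F4 gained, lower), 8 for the interaction (E2F6 gained, above 0) and 6 for the SP3 siRNA against the SP1 siRNA (E2F7 gained, higher). The cause of the other changes was not tested.

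Signs turned as follows, on the log2 scale. In the additive model E2F1 and E2F5 with both siRNAs came to -0.0149 and 0.0335, RBL1, MYBL2, RYBP and MCM2 with the SP1 siRNA to 0.166, 0.393, 0.294 and 0.00622, and RYBP with both to -0.0924. Of these, MCM2 had been called. With scaling, both siRNAs against the SP1 siRNA gave 0.0326 for E2F2 and 0.000877 for E2F3, the SP3 siRNA against the SP1 siRNA 0.0788 for E2F3 and 0.0881 for E2F8, both against the SP3 siRNA -0.0184 for E2F7 and -0.00906 for E2F8, the SP3 siRNA against the controls 0.00651 for E2F5, and both against the controls -0.00364 for RYBP. The members' median for the SP3 siRNA against the SP1 siRNA was 0.15 with a mean of at least 5 FPKM.

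Leaving out a control moved the members' median with the SP1 siRNA between -0.47 and -0.27. These fits have no test, since no residual degree of freedom is left. No paired analysis was possible because each knockdown group has 1 library and only the controls carry numbers. Depth limits RBL1 and E2F2 most.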
